A study of Arabidopsis thaliana with 71 samples.

Results

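The tau and phi glutathione transferases of Arabidopsis thaliana were followed in whole seedlings, as the 39 listed loci GSTU1 to GSTU28 (tau class) and 11 GSTF genes (phi class). The members were chosen by locus and class, with earlier results of these data known. Of the 39, 38 had a row in the deposited expression table and 36 (25 tau, 11 phi) had a mean of at least 1 FPKM in at least 1 group and were tested, among 19406 genes tested in all. GSTU2 and GSTU21 stayed below that level, and GSTU15 was not analysed here. FPKM correct fragment counts for the length of the transcript and the size of the library, so levels are per length.

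The 71 libraries came from seedlings of the Columbia ecotype, grown in liquid MS medium for 7 days and then given 50 µM dexamethasone, with tissue frozen at 0, 30, 60 and 120 min. Wild type (WT) was compared with 4 transgenic lines in that background. In these the leaf polarity and meristem regulators AS2 (line GR-AS2), STM (GR-STM), REV (GR-REV) and KAN1 (GR-KAN1, also written KANADI1-GR) are each fused to a glucocorticoid receptor domain, which holds the protein out of the nucleus until the hormone is present. All 5 lines received the hormone and no mock-treated group was analysed, so hormone, handling and time in the flask cannot be told apart in WT. WT had 6 libraries at each time and each transgenic line had 3, apart from 2 for GR-REV at 30 min. The labels name neither the promoter of each fusion nor whether a line is 1 insertion, so a difference that a line already has at 0 min cannot be told apart from a difference between seed stocks.

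Glutathione transferases join the tripeptide glutathione to reactive or foreign molecules, and the conjugates are then carried into the vacuole by ABCC transporters. The tau and phi classes are the large plant classes. Their genes are known for responding to herbicides, oxidants, pathogens and several hormones, and single members have fixed roles: GSTF6 in making the defence compound camalexin, GSTF12 (TT19) in bringing anthocyanin to the vacuole, and GSTF11 and GSTU20 beside aliphatic glucosinolate synthesis.

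Several facts of the libraries touch the values below. WT replicates 1 to 3 and all transgenic libraries carry library codes of 1 series (Ot79), and WT replicates 4 to 6 those of other series. In replicates 4 to 6 the series follows the time: Ot86 at 0 and 60 min, OtA0 at 120 min, and both at 30 min. In WT, GSTF6 had a median of 73.6 FPKM in replicates 1 to 3 and 31.5 FPKM in replicates 4 to 6 (n = 12 each), and GSTU20 had 1113 and 437 FPKM. The fit therefore holds the code series as a covariate. With it, WT at 120 min against 0 min leans more on replicates 1 to 3 than WT at 60 min does. The same holds for the changes beyond WT at 120 min. A line's difference from WT over the 4 times together rests, with this covariate, on WT replicates 1 to 3. The WT medians and ranges below cover all 6 replicates unless stated, so they need not match the fitted differences. The third replicate at 30 min was the highest of its group for 27 of the 36 genes in WT (6 libraries). It was so for 18 in GR-AS2 and 21 in GR-STM (3 libraries each). In GR-KAN1 replicate 1 was the highest for 24 and the third for 8, and in GR-AS2 replicate 2 was for 14. Fits named below as without the 3 high libraries leave out the third replicates of WT, GR-AS2 and GR-STM and keep GR-KAN1 replicate 1. Since whole seedlings were used, a lower level may mean fewer cells of a type or less RNA per cell, and these cannot be told apart. Summed root markers, of which BGLU23 made up most, had a median of 1232 FPKM in WT, 3030 in GR-AS2, 2430 in GR-STM, 2101 in GR-REV and 1773 in GR-KAN1, and the lines overlapped (736 to 6599 FPKM in WT). Summed green shoot markers without RBCS1A had medians of 35790, 45600, 40610, 67110 and 51850 FPKM in the same order, with lowest and highest values of 7522 and 142400 FPKM over all libraries. RBCS1A, a gene all green cells use, was listed at 0 in 58 of 71 libraries, so a listed 0 can be a failed estimate. The FPKM of all genes summed to 925195 (WT 60 min replicate 2) to 398875434 (GR-STM 0 min replicate 3) per library. In WT replicates 4 to 6 the sum was 974615 to 1388340. The median gene stood at 4.25 to 4.92 FPKM in every library. The part of these unequal sums in the values below was not tested.

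A small part of the family made most of its transcripts. GSTF9, GSTF10, GSTU20, GSTU19, GSTF2 and GSTF8 together held 65.7% to 95.97% of the summed FPKM of the 38 genes in a library, with a median of 90.6%. GSTF9 (AT2G30860) was the highest, with a median of 3238 FPKM over the 71 libraries and a range of 1148 to 9858 FPKM. GSTF10 (AT2G30870), whose gene lies beside it, had a median of 1006 FPKM (352 to 4466). Of the tau class, GSTU20 (AT1G78370) had a median of 1042 FPKM (366 to 2520) and GSTU19 (AT1G78380) had 803 FPKM (377 to 1873). GSTU27 was the next tau gene by mean level, at a median of 68.2 FPKM (38.5 to 257). At the other end, GSTU3 was listed at 0 in 23 libraries, GSTU11 in 8, GSTU12 in 4 and GSTF12 in 1. The family's summed FPKM per library was 6602 ± 3326 in WT (SD, n = 24), 11440 ± 4194 in GR-AS2 (n = 12), 8953 ± 3261 in GR-STM (n = 12), 14470 ± 5617 in GR-REV (n = 11) and 8745 ± 2988 in GR-KAN1 (n = 12). The ranges of these sums overlapped between all lines, since WT reached 18910 and GR-REV began at 7275.

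**Figure D1:**
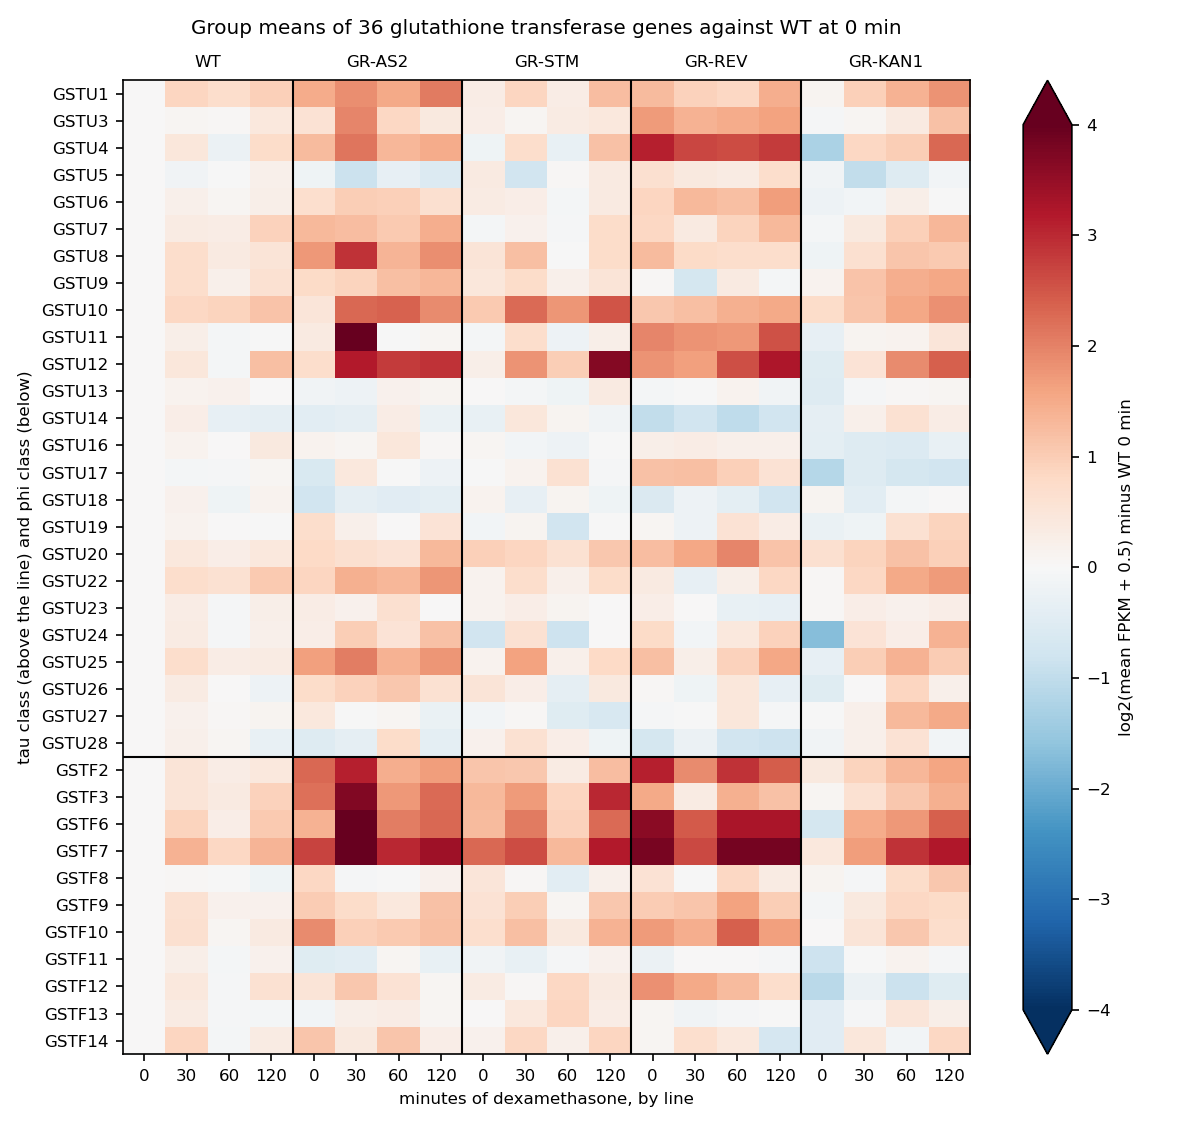
Heat map of the 36 tested genes (rows, tau above and phi below) in the 20 groups (columns, 5 lines at 0, 30, 60 and 120 min), coloured by log2(group mean FPKM + 0.5) minus WT at 0 min, with colours ending at 4 and -4. GSTF6, GSTF7 and GSTF2 are red across GR-AS2 and GR-REV, GSTU4 and GSTU11 across GR-REV, GSTU17 and GSTF12 are blue across GR-KAN1, and the darkest cells, GSTF6, GSTF7 and GSTU11 in GR-AS2 at 30 min, rest on 1 high library.

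The 39 genes lie in 9 runs of neighbours within 20000 bp of each other that hold 27 genes, and 12 stand alone. The longest runs are GSTU1 to GSTU7 on chromosome 2 (12617936 to 12632538 in TAIR10.1) and GSTU19 to GSTU23 on chromosome 1 (29467412 to 29488007). Close copies limit what can be said of single genes, because it is not given how reads that match several copies were shared out. The coding sequences of the neighbours GSTF6 and GSTF7 are 94.7% identical and those of GSTF2 and GSTF3, on different chromosomes, 94.5%. In all, 18 genes have a listed copy at 80% identity or more. Strand use is not given either, and GSTF2 overlaps AT4G02510 on the opposite strand by 1442 bp, GSTF11 overlaps AT3G03200 by 1096 bp, and GSTF12 overlaps AT5G17230 by 108 bp.

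In WT none of the 36 genes passed the test at 30, 60 or 120 min against 0 min. The test was limma on log2(FPKM + 0.5), two-sided, with Benjamini-Hochberg adjustment over all 19406 genes and a call at an adjusted p under 0.05. Of all genes 0.0567% (0.0258% higher, 0.0309% lower), 0.0258% (all higher) and 0.067% (0.0567% higher, 0.0103% lower) were called at these times. Before adjustment 7, 3 and 11 of the 36 had a p under 0.05, and 32, 24 and 29 had a positive difference. Among all 19406 genes 1002, 792 and 1619 had such a p, and 9542, 9881 and 9549 had a positive difference. The members' median log2 difference was 0.32, 0.05 and 0.39, where the median of all genes was -0.0028, 0.0017 and -0.0027. With no covariate for the code series 4 calls were made, and 2 without the third replicate of WT, GR-AS2 and GR-STM at 30 min, the 3 libraries high in many members.

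Over the 4 times together, the family differed most from WT in GR-AS2 and GR-REV. In GR-REV 15 of 36 genes were higher and 5 lower (22.7% of all genes were called either way), with a median log2 difference of 0.50 over the 36 and -0.0048 over all genes. The 15 include GSTU3 and GSTU11, which passed the filter only through transgenic groups where they were high. In GR-AS2 15 were higher and 2 lower (17.6% of all genes called), with medians of 0.53 and 0.02. In GR-KAN1 2 were higher and 4 lower (11.6% of all genes called), with medians of 0.16 and 0.0056. In GR-STM 2 were higher and 0 lower (4.08% of all genes called), with medians of 0.08 and 0.0033. The shares of all genes called higher and lower were 12.6% and 10.1% in GR-REV, 8.6% and 9.01% in GR-AS2, 5.23% and 6.38% in GR-KAN1, and 2.41% and 1.67% in GR-STM. The 4 comparisons share the WT libraries. With no covariate for the code series the calls were 9 in GR-STM and 13 in GR-KAN1, and without the 3 high libraries at 30 min they were 11 in GR-KAN1. GSTU4, GSTU6, GSTU7, GSTU12, GSTF2, GSTF6 and GSTF7 were called higher in both GR-AS2 and GR-REV. The root marker sums given above were higher at the median in all 4 transgenic lines than in WT, and their part in these calls was not tested. Of the 8 root markers, 1 was higher (EXPA7) and 1 lower (SHR) in GR-AS2, and 1 was higher (WOX5) and 1 lower (COBL9) in GR-REV.

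**Figure D2:**
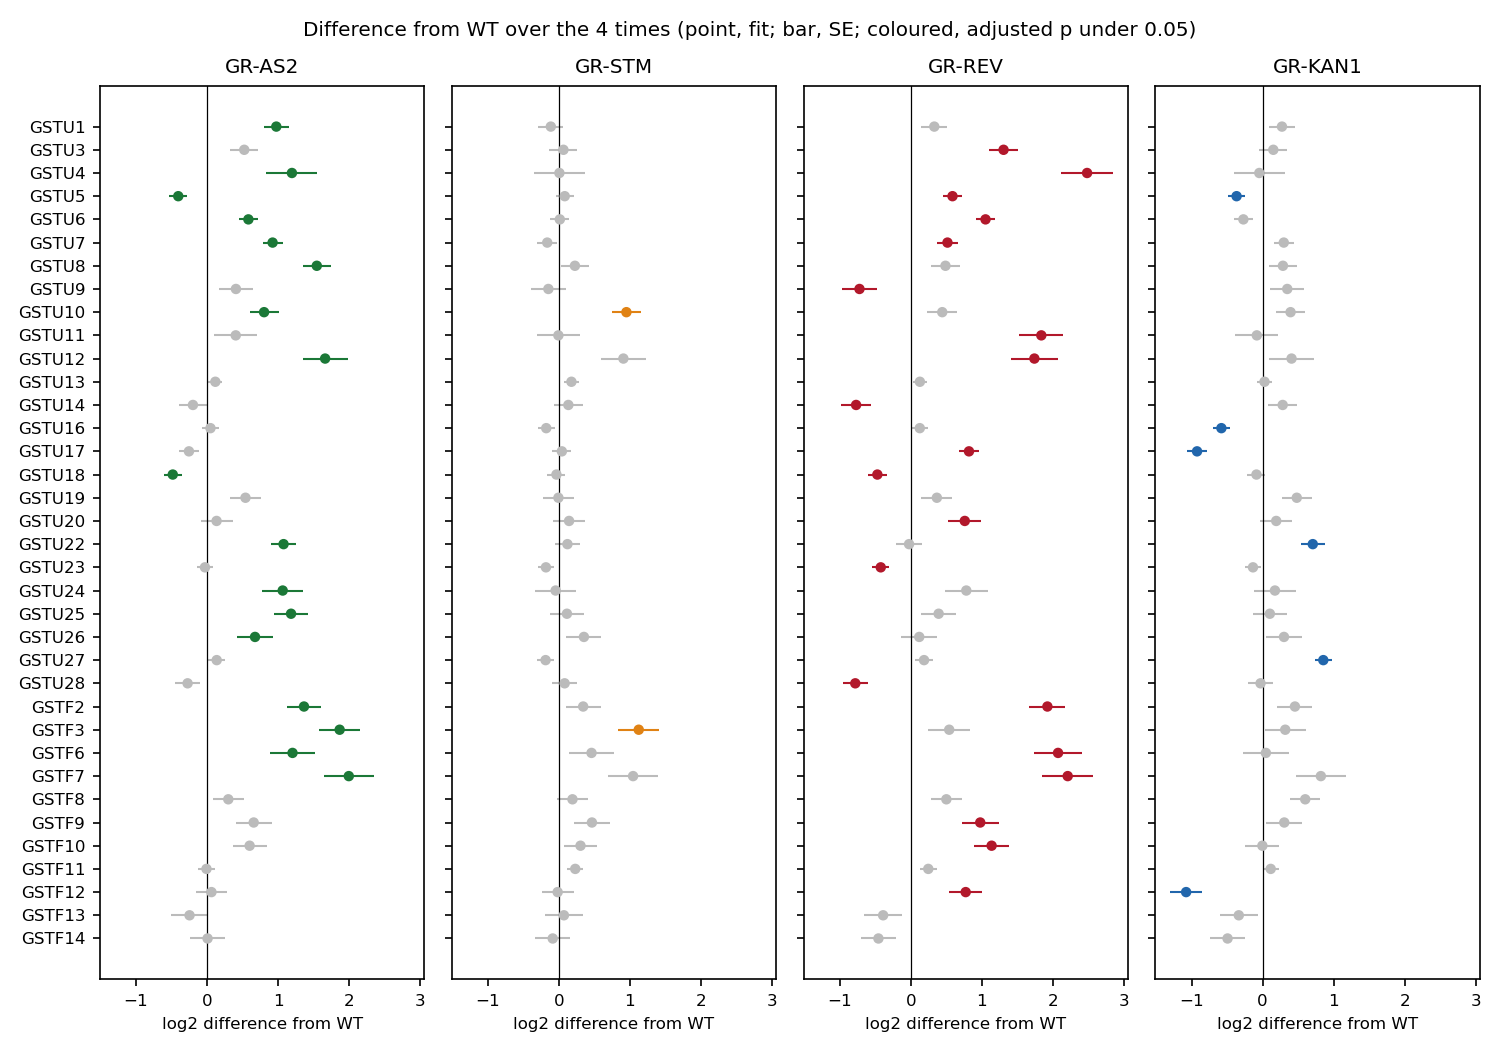
Fitted log2 difference from WT over the 4 times for each of the 36 genes (rows), in a panel for each transgenic line, with bars for the SE and colour for genes at an adjusted p under 0.05. GR-AS2 and GR-REV carry most coloured points to the right of 0, GR-STM has GSTU10 and GSTF3 alone, and GR-KAN1 has GSTU17 and GSTF12 furthest to the left.

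The phi genes GSTF6 (AT1G02930) and GSTF7 (AT1G02920) were far higher in GR-REV and GR-AS2 than in WT. GSTF6 acts in camalexin synthesis, where it joins glutathione to indole-3-acetonitrile, and GSTF7 is its neighbour on chromosome 1 (658578 to 659980 for GSTF7, 661088 to 662475 for GSTF6). The RefSeq window of TAIR10.1 that holds the 250 bases before the start of GSTF7 lies at chr1:659981-660230 on the minus strand. It is shown because GSTF7 is among the genes most raised over WT in both lines and holds a defence motif several times. Capitals mark the letters TTGAC on either strand, the core of the W-box to which WRKY factors bind.
GSTF7: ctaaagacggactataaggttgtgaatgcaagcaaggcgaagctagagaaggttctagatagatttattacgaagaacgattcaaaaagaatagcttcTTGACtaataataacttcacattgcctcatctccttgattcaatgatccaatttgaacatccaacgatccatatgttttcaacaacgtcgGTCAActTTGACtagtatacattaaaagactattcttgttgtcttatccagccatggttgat
GSTF7 holds TTGAC at -152, -62 and -55 (the base before the annotated start is -1). TTGAC occurs at least once in 44.9% of the windows of all 27555 protein-coding genes and in 23 of the 39 listed ones (59.0%). The share of windows that hold it several times was not computed, and no use of it was measured here.

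GSTF6 had a lowest, median and highest level of 13.6, 57.4 and 276 FPKM in WT (n = 24). It had 233, 422 and 821 FPKM in GR-REV (n = 11), where all libraries stood above every WT library but the third replicate at 30 min. In GR-AS2 the values were 62.8, 186 and 2627 FPKM (n = 12), in GR-STM 49.4, 120 and 429 FPKM (n = 12), and in GR-KAN1 26.4, 137 and 370 FPKM (n = 12). The highest GR-AS2 value is that of the third replicate at 30 min, beside 127 and 234 FPKM in the other replicates of that group. The log2 difference from WT was 2.07 (SE 0.33, limma adjusted p = 2.67e-06) in GR-REV and 1.203 (SE 0.32, adjusted p = 0.0071) in GR-AS2, and both calls were kept in every fit without a single library. It was 0.46 (SE 0.32) in GR-STM and 0.05 (SE 0.32) in GR-KAN1, neither of which passed.

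GSTF7 was also highest at the median in GR-REV, then in GR-AS2. Its lowest, median and highest levels were 18.4, 60.4 and 445 FPKM in WT, 243, 433 and 1178 FPKM in GR-REV and 108, 382 and 2613 FPKM in GR-AS2, so the ranges overlapped with WT only through the upper WT libraries. The medians were 203.5 FPKM in GR-STM and 181 FPKM in GR-KAN1. The log2 difference was 2.21 (SE 0.36, limma adjusted p = 3.49e-06) in GR-REV and 2.00 (SE 0.35, adjusted p = 9.21e-05) in GR-AS2. With GSTF6 and GSTF7 summed as one gene the differences were 2.15 (SE 0.34) in GR-REV and 1.68 (SE 0.33) in GR-AS2, and both passed. For the sum the differences in GR-STM (0.80, adjusted p = 0.232) and GR-KAN1 (0.52, adjusted p = 0.334) did not pass.

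GSTF2 (AT4G02520), whose protein binds camalexin and other small indolic and flavonoid ligands, was higher in both lines too. It lies on chromosome 4 (TAIR10.1, 1110343 to 1112033). Its lowest, median and highest levels were 128.5, 269 and 1000 FPKM in WT, 726, 1417 and 3993 FPKM in GR-REV, and 503.5, 874 and 4820 FPKM in GR-AS2. Of the 11 GR-REV libraries 9 stood above every WT library, and every GR-AS2 library stood above the WT median. The log2 difference was 1.92 (SE 0.25, limma adjusted p = 2.70e-08) in GR-REV and 1.36 (SE 0.25, adjusted p = 1.34e-04) in GR-AS2. AT4G02510, which overlaps it, had no called difference in these lines, at 0.22 (SE 0.16) and 0.08 (SE 0.16), with 12.3 ± 4.44 FPKM in WT. GSTF3, its close copy, had far lower levels, at a median of 0.696 FPKM in WT and 3.78 FPKM in GR-AS2. There, 11 of 12 GR-AS2 libraries stood above every WT library (log2 difference 1.87, SE 0.29, adjusted p = 1.68e-05). GSTF3 was also higher in GR-STM by 1.124 (SE 0.29, adjusted p = 0.0105), a call that was not made for GSTF2 and GSTF3 summed (0.35, adjusted p = 0.621), in which GSTF2 makes up nearly all.

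The neighbours GSTF9 and GSTF10 on chromosome 2, abundant phi genes of which GSTF10 is known to interact with the receptor kinase BAK1, were higher in GR-REV. GSTF9 had a lowest, median and highest level of 1148, 2260 and 9858 FPKM in WT and 2550, 4923 and 8491 FPKM in GR-REV (log2 difference 0.98, SE 0.26, limma adjusted p = 0.00423). GSTF10 had 352, 530 and 2605 FPKM in WT and 1006, 1933 and 4466 FPKM in GR-REV (1.14, SE 0.25, adjusted p = 3.92e-04). The ranges overlapped for both, and the highest WT values came from the third replicate at 30 min. In WT, GSTF10 also differed by code series, with a median of 866 FPKM in replicates 1 to 3 and 430 FPKM in replicates 4 to 6. GSTF8, whose promoter is a widely used reporter of early stress in roots, was at a median of 478.5 FPKM in WT and 635 FPKM in GR-REV, and it was not called in any line.

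**Figure D3:**
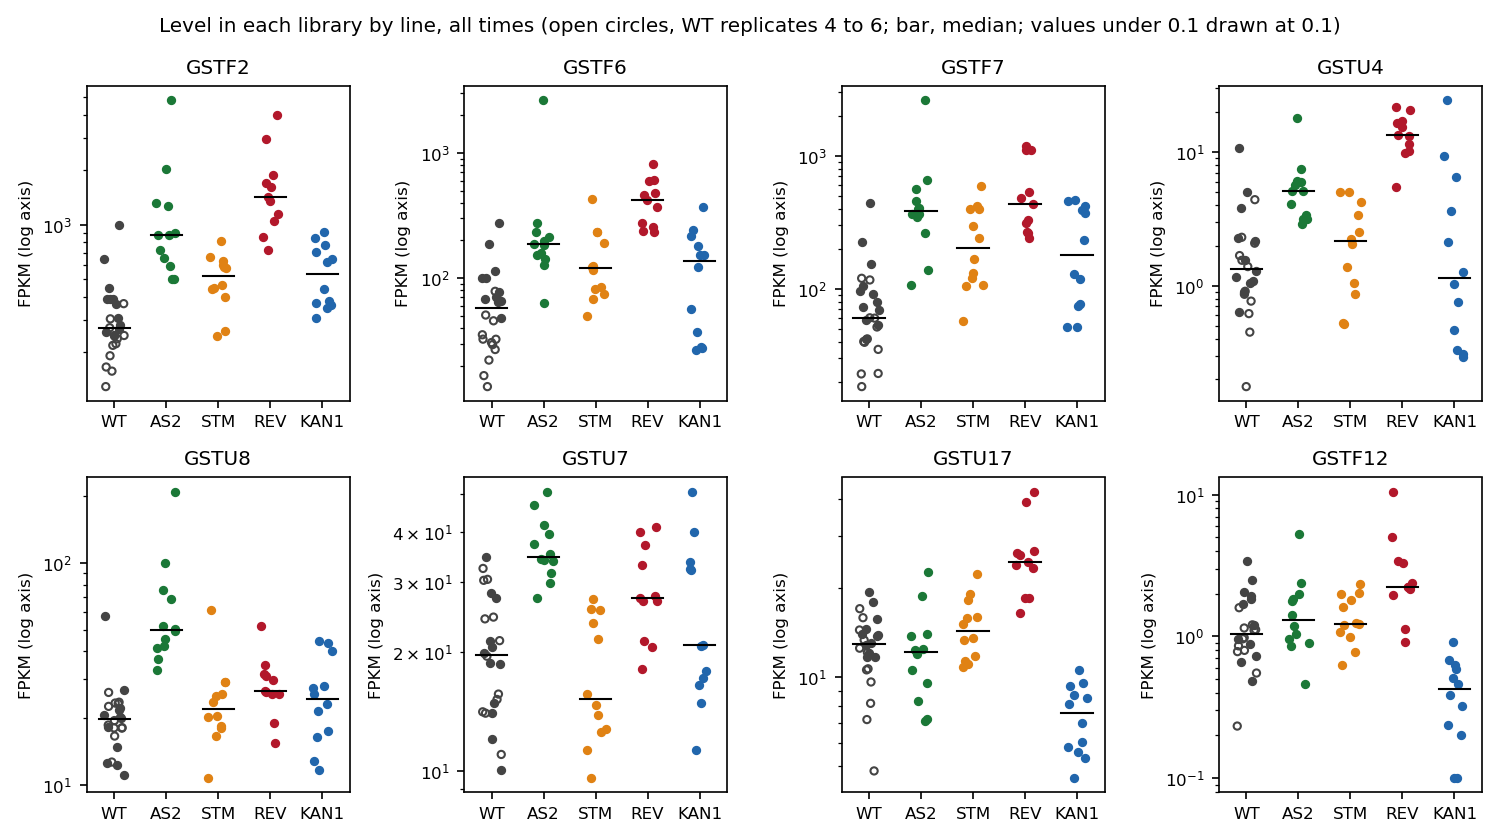
Level of 8 members in every library, by line over all times (FPKM on a log axis, bar at the median, open circles for WT replicates 4 to 6). Most GR-REV points of GSTF2, GSTF6 and GSTU4 lie above every WT point, as do 5 of 11 of GSTF7, GSTU8 and GSTU7 stand highest in GR-AS2, and GSTU17 and GSTF12 stand highest in GR-REV and lowest in GR-KAN1.

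GSTF12 (TT19, AT5G17220), the phi protein without which anthocyanin does not collect in the vacuole, differed from WT in opposite directions in GR-REV and GR-KAN1. It lies on chromosome 5 (5658416 to 5659661). Its levels were low, with a lowest, median and highest value of 0.233, 1.04 and 3.39 FPKM in WT and 0.912, 2.24 and 10.5 FPKM in GR-REV. In GR-KAN1 the libraries stood at 0, 0.323 and 0.202 FPKM at 0 min, 0.589, 0.627 and 0.912 at 30 min, 0.0963, 0.2355 and 0.51 at 60 min, and 0.46, 0.387 and 0.686 at 120 min. All 12 lay below the WT median, and the highest stood just under the lowest GR-REV library. The log2 difference from WT was -1.08 (SE 0.22, limma adjusted p = 4.98e-04) in GR-KAN1 and 0.77 (SE 0.23, adjusted p = 0.0108) in GR-REV, and GR-REV exceeded GR-KAN1 by 1.85 (SE 0.23, adjusted p = 3.98e-09). The GR-REV call against WT was kept in 34 of 35 fits without a single library. AT5G17230, which overlaps it, was far higher, at 96.9 ± 16.1 FPKM in WT, and differed by -0.35 (SE 0.15, adjusted p = 0.114) in GR-KAN1 and -0.28 (SE 0.15, adjusted p = 0.17) in GR-REV.

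Genes of anthocyanin synthesis stood beside GSTF12. Of the 6 tested of 8 in that list, 4 were lower and 0 higher in GR-KAN1 (11.6% of all genes were called), with a median log2 difference of -0.81. They were F3H, the flavanone hydroxylase (-0.69, SE 0.13, limma adjusted p = 7.43e-05), DFR, the dihydroflavonol reductase (-1.17, SE 0.27), CHS, the first enzyme of the flavonoid branch (-0.94, SE 0.23), and LDOX, the anthocyanidin synthase (-0.94, SE 0.25). In GR-REV 3 were higher and 0 lower (22.7% of all genes called, 12.6% higher), with a median of 0.41. They were LDOX (0.97, SE 0.26, adjusted p = 0.00424), DFR (0.91, SE 0.28) and UGT75C1, an anthocyanin glucosyltransferase (0.37, SE 0.13). DFR stood at a median of 2.49 FPKM in WT, 4.30 FPKM in GR-REV and 0.714 FPKM in GR-KAN1. None of the list was called in GR-AS2 or GR-STM (17.6% and 4.08% of all genes).

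Genes of camalexin and indolic defence were higher in the lines where GSTF6 was. In GR-AS2 5 of 7 were higher and 0 lower (17.6% of all genes were called), with a median of 0.81, and in GR-REV 5 of 7 were higher and 0 lower (22.7% of all genes called), with a median of 0.84. In GR-REV they included CYP71A13, which makes the indole-3-acetonitrile that GSTF6 conjugates (1.39, SE 0.23, limma adjusted p = 7.53e-06), and PAD3, the last enzyme of the pathway (1.93, SE 0.36, adjusted p = 4.68e-05). PAD3 had a median of 4.21 FPKM in WT, 25.75 in GR-REV and 16.2 in GR-AS2. In GR-AS2 the smallest adjusted p values were those of CYP71A12 (2.63, SE 0.45, adjusted p = 7e-05) and CYP81F2, a P450 of indole glucosinolates (1.46, SE 0.27). GGP1, the peptidase that trims the glutathione conjugate, was higher by 1.26 (SE 0.24, adjusted p = 4.71e-05) in GR-REV and 0.73 (SE 0.23, adjusted p = 0.0216) in GR-AS2. In GR-STM CYP71A12 and CYP81F2 were the 2 genes called (4.08% of all genes), and in GR-KAN1 WRKY33 was the 1 called (11.6% of all genes).

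**Figure D4:**
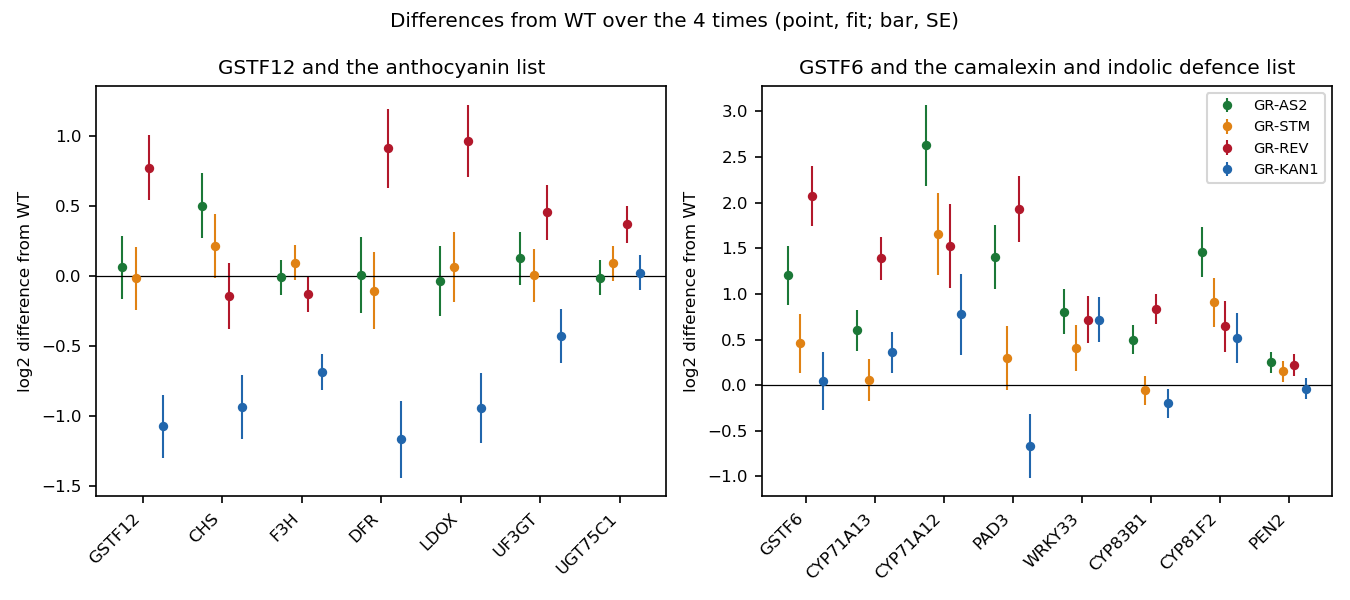
Fitted log2 difference from WT over the 4 times (points, with bars for the SE) for GSTF12 beside the anthocyanin list (left) and GSTF6 beside the camalexin and indolic defence list (right), coloured by line. In the left panel GR-KAN1 lies below 0 for GSTF12, CHS, F3H, DFR and LDOX and GR-REV above 0 for GSTF12, DFR and LDOX, and in the right panel all 7 list genes lie above 0 in GR-AS2 and GR-REV.

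In the tau class, the run GSTU1 to GSTU7 was higher in GR-REV over most of its length. GSTU3 (AT2G29470), GSTU4 (AT2G29460), GSTU5 (AT2G29450), GSTU6 (AT2G29440) and GSTU7 (AT2G29420) were called higher, and GSTU1 (AT2G29490) was not called (0.33). GSTU4 had a lowest, median and highest level of 0.176, 1.34 and 10.7 FPKM in WT and 5.47, 13.4 and 21.75 FPKM in GR-REV, with 8 of 11 GR-REV libraries above every WT library (log2 difference 2.48, SE 0.37, limma adjusted p = 5.42e-07). GSTU6 had 3.44, 4.98 and 7.18 FPKM in WT and 7.095, 11.3 and 16.7 FPKM in GR-REV, with 10 of 11 above every WT library (1.05, SE 0.14, adjusted p = 2.60e-08). GSTU5, an auxin-responsive gene of the run, had 33.8, 74.95 and 115 FPKM in WT and 74.6, 94.1 and 151 FPKM in GR-REV (0.59, SE 0.13, adjusted p = 4.85e-04). GSTU3 was listed at 0 or at most 0.373 FPKM in WT, and stood at 0.3455 to 1.58 FPKM in GR-REV, 10 of 11 libraries above every WT library (1.31, SE 0.20, adjusted p = 1.50e-06). GSTU3 passed the filter of 1 FPKM only through transgenic groups where it was high. Its difference from WT is therefore a description and no independent support.

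The same run differed in composition in GR-AS2. GSTU1, GSTU4, GSTU6 and GSTU7 were higher there, GSTU5 was lower by 0.41 (-0.41, SE 0.13, limma adjusted p = 0.0195) and GSTU3 was not called (0.52). GSTU7 had 10.1, 19.7 and 34.7 FPKM in WT, 27.3, 34.7 and 50.5 FPKM in GR-AS2 and 18.1, 27.25 and 41.3 FPKM in GR-REV, so that the lowest GR-AS2 library stood above the WT median. Its log2 difference was 0.92 (SE 0.14, adjusted p = 1.37e-05) in GR-AS2 and 0.52 (SE 0.14, adjusted p = 0.00617) in GR-REV. GSTU5 separated the lines within the run: GR-AS2 was below GR-REV by 0.99 on the log2 scale (-0.99, SE 0.13, adjusted p = 2.08e-08) and GR-REV above GR-KAN1 by 0.95 (SE 0.13, adjusted p = 3.35e-08). In GR-AS2 its lowest, median and highest levels were 32.2, 51.9 and 68.0 FPKM, and in GR-KAN1 27.3, 53.4 and 78.7 FPKM.

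The neighbours GSTU11 (AT1G69930) and GSTU12 (AT1G69920) on chromosome 1 were low in WT and higher in GR-REV. GSTU11 stood at 0 to 0.718 FPKM in WT and at 1.94, 1.08 and 3.12 FPKM in the GR-REV libraries at 0 min, 1.95 and 1.56 at 30 min, 2.32, 1.08 and 1.65 at 60 min, and 2.63, 3.47 and 3.88 at 120 min. All 11 GR-REV libraries stood above every WT library (log2 difference 1.84, SE 0.31, limma adjusted p = 8.23e-06). No WT library of GSTU11 reached 1 FPKM, so the gene entered the test only through transgenic groups where it was high. Its difference from WT is thus a description and no independent support. In GR-AS2 it stood at 32.8 FPKM in the third replicate at 30 min and at 0 to 0.487 FPKM in the other libraries, and it was not called. GSTU12 was higher in GR-REV by 1.74 (SE 0.33, adjusted p = 4.85e-05) and in GR-AS2 by 1.66 (SE 0.32, adjusted p = 2.43e-04), with medians of 0.305 FPKM in WT, 2.97 in GR-REV and 3.496 in GR-AS2. WT reached 3.02 FPKM, so its range overlapped with both lines.

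GSTU17 (AT1G10370), a light-regulated gene known for a part in seedling development and drought responses, separated GR-REV from GR-KAN1 with the smallest adjusted p of any member in any comparison made. It lies on chromosome 1 (3396883 to 3398358). Its lowest, median and highest levels were 4.81, 12.97 and 19.5 FPKM in WT, 7.12, 12.2 and 22.6 FPKM in GR-AS2, 10.8, 14.3 and 22.3 FPKM in GR-STM, 16.5, 24.4 and 42.4 FPKM in GR-REV and 4.55, 7.53 and 10.6 FPKM in GR-KAN1. GR-REV and GR-KAN1 did not overlap. All 12 GR-KAN1 libraries stood below every WT library of replicates 1 to 3, and 1 of 12 stood below every WT library of all replicates. Of the GR-REV libraries 8 of 11 stood above every WT library of all replicates. The log2 difference from WT was 0.82 (SE 0.14, limma adjusted p = 8.15e-06) in GR-REV and -0.92 (SE 0.14, adjusted p = 1.00e-06) in GR-KAN1. GR-REV exceeded GR-KAN1 by 1.74 (SE 0.14, adjusted p = 2.64e-15). GSTU18, the next gene, whose annotated bounds overlap those of GSTU17 by 71 bp on the same strand, moved the other way in GR-REV (-0.47, SE 0.13, adjusted p = 0.00611). It was lower in GR-AS2 as well (-0.48, SE 0.13, adjusted p = 0.00611) and was not called in GR-KAN1.

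GSTU20, which works beside aliphatic glucosinolate synthesis and binds the jasmonate-conjugating enzyme JAR1, was higher in GR-REV by 0.76 (SE 0.23, limma adjusted p = 0.013). Its lowest, median and highest levels were 366, 529.5 and 1699 FPKM in WT and 589, 2000 and 2520 FPKM in GR-REV, so the ranges overlapped. The WT median was 1113 FPKM in replicates 1 to 3, on which the fitted difference rests. Of 10 aliphatic glucosinolate genes 6 were higher and 0 lower in GR-REV (22.7% of all genes were called), with a median of 0.50, among them MAM1 of chain elongation (0.80, SE 0.13), the sulfotransferase gene SOT17 (0.53, SE 0.09) and CYP79F1, the first enzyme of the core pathway (1.22, SE 0.22). GSTF11 (AT3G03190), the phi member of that pathway, was not called in GR-REV (0.25). GSTU19, the other abundant tau gene, had medians of 835 FPKM in WT, 1011 in GR-AS2, 659 in GR-STM, 803 in GR-REV and 828 in GR-KAN1 and was not called in any line. GSTU13, which takes part in indole glucosinolate breakdown with PEN2, had medians between 60.9 and 72.7 FPKM in the 5 lines and was likewise not called.

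Lower in GR-REV were GSTU28 (-0.78, SE 0.18, limma adjusted p = 7.00e-04), GSTU14 (-0.77, SE 0.21), GSTU9 (-0.72, SE 0.25), GSTU18 and GSTU23 (-0.42, SE 0.12). GSTU28 had a lowest, median and highest level of 2.82, 4.53 and 9.87 FPKM in WT and 1.5, 2.83 and 5.00 FPKM in GR-REV. GSTU14 had 2.29, 4.09 and 8.61 FPKM in WT and 1.34, 2.36 and 2.91 FPKM in GR-REV. The ranges overlapped for both. The GSTU9 and GSTU23 calls were kept in 31 and 34 of 35 fits without a single library.

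Further tau genes called higher in GR-AS2 were GSTU8, GSTU22, GSTU24, GSTU25, GSTU26 and GSTU1. GSTU8 (AT3G09270) had a lowest, median and highest level of 11.1, 19.8 and 58.0 FPKM in WT and 33.0, 50.1 and 209 FPKM in GR-AS2, where every library stood above all WT libraries but the third replicate at 30 min (log2 difference 1.55, SE 0.19, limma adjusted p = 3.52e-07). GR-AS2 also exceeded GR-STM by 1.32 (SE 0.19), GR-KAN1 by 1.26 (SE 0.19) and GR-REV by 1.06 (SE 0.20, adjusted p = 5.44e-05) in GSTU8. GSTU22 (AT1G78340) had 0.409, 1.63 and 3.66 FPKM in WT, 2.02, 2.74 and 4.80 FPKM in GR-AS2 and 0.408, 1.06 and 2.46 FPKM in GR-REV. It was higher than WT by 1.08 (SE 0.17, adjusted p = 2.93e-05) in GR-AS2 and differed by 1.10 (SE 0.18, adjusted p = 3.06e-06) between GR-AS2 and GR-REV. The 3 neighbours GSTU24, GSTU25 and GSTU26 were all called. GSTU24 and GSTU25, known for acting on the explosive TNT, were higher by 1.07 (SE 0.29, adjusted p = 0.0079) and 1.18 (SE 0.24, adjusted p = 4.56e-04), and GSTU26 by 0.68 (SE 0.25, adjusted p = 0.049), the last a call kept in 8 of 36 fits without a single library. GSTU1 was higher by 0.97 (SE 0.18, adjusted p = 1.62e-04), with a median of 2.83 FPKM in WT and 7.41 FPKM in GR-AS2.

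The upstream windows of 4 genes higher in GR-AS2 or GR-KAN1, picked because they hold the letters, are shown with the letters TGACG, on either strand, in capitals. These letters are the core bound by TGA factors, the bZIP proteins through which many glutathione transferase genes respond to foreign chemicals. The windows are RefSeq sequence of TAIR10.1, 250 bases before the annotated start, at chr2:12632539-12632788 (minus strand), chr1:29474004-29474253 (minus), chr1:5871774-5872023 (plus) and chr3:15660520-15660769 (plus), and none overlaps an annotated exon.
GSTU1: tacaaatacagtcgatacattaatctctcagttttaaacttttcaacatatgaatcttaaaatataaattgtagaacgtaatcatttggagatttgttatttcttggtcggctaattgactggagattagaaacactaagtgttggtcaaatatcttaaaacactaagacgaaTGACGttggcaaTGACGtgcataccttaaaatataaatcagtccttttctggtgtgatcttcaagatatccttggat
GSTU22: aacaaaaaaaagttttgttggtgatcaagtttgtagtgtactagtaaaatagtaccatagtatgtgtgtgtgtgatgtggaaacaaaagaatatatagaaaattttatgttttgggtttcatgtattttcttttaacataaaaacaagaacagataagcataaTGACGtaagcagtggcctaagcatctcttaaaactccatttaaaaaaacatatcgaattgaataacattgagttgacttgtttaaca
GSTU25: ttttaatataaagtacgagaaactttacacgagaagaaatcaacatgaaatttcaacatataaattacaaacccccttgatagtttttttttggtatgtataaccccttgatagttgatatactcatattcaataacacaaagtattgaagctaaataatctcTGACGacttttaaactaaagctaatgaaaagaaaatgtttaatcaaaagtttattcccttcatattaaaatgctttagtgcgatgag
GSTU27: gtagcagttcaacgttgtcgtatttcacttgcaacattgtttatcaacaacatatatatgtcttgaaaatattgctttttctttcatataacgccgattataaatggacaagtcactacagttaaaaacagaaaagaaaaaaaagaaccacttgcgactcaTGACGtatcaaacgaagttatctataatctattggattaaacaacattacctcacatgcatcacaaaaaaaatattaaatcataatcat
The letters begin at -77 and -65 in GSTU1, -87 in GSTU22, -87 in GSTU25 and -89 in GSTU27. TGACG was found in the windows of 14 of the 39 listed genes (35.9%) and in 18.5% of those of all 27555 protein-coding genes. Where a T precedes them, the letters also hold TTGAC, so the motifs overlap. Of the 15 genes higher in GR-AS2 over all times 7 held TGACG, of the 15 in GR-REV 6, and of the 36 tested 14. GSTF7 and GSTU17 did not hold it in these windows. Among the TGA genes and SCL14, 0 of 7 were called in GR-AS2 (17.6% of all genes called). In GR-REV TGA4 (-0.48, SE 0.08, limma adjusted p = 4.43e-06), TGA1 (-0.44, SE 0.11) and TGA6 (-0.27, SE 0.08) were lower (22.7% of all genes called, 10.1% lower).

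In GR-STM the 2 genes called were GSTF3, given above, and GSTU10 (AT1G74590). It had a lowest, median and highest level of 0.693, 1.775 and 3.82 FPKM in WT, 1.80, 3.78 and 12.98 FPKM in GR-STM and 0.842, 4.54 and 12.1 FPKM in GR-AS2. Its log2 difference from WT was 0.95 (SE 0.20, limma adjusted p = 0.00138) in GR-STM and 0.80 (SE 0.20, adjusted p = 0.0044) in GR-AS2. The highest values of both lines were those of the third replicate at 30 min, and both calls were kept in every fit without a single library.

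In GR-KAN1 the 4 lower genes were GSTU17, GSTF12, GSTU16 and GSTU5, and the 2 higher were GSTU27 and GSTU22. GSTU16 had a lowest, median and highest level of 13.9, 20.6 and 30.9 FPKM in WT and 9.40, 13.9 and 22.7 FPKM in GR-KAN1 (-0.58, SE 0.12, limma adjusted p = 2.99e-04). The GSTU5 call (-0.37, SE 0.13, adjusted p = 0.0464) was kept in 22 of 36 fits without a single library. GSTU22 was higher by 0.71 (SE 0.17, adjusted p = 0.00337), with a median of 2.36 FPKM against 1.63 FPKM in WT.

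Before dexamethasone the lines already differed. At 0 min, 10 genes were higher and 2 lower in GR-REV (7.81% of all genes were called, 4.86% higher and 2.95% lower), with a median log2 difference of 0.78 over the 36 and -0.0031 over all genes. GSTF2 stood at 3993, 1417 and 1344 FPKM in GR-REV and at 256, 448, 280, 221, 128.5 and 217 FPKM in WT replicates 1 to 6, without overlap (2.74, SE 0.45, limma adjusted p = 1.73e-05). GSTU4 stood at 16.55, 13.4 and 21.75 FPKM in GR-REV and at 0.641 to 2.31 FPKM in WT (3.11, SE 0.66, adjusted p = 0.00107), also without overlap. These 2 genes with GSTF6 and GSTF7 kept their calls in each of 9 fits without a single library, as did GSTU3. GSTU3 and GSTU11, both among the 10 higher genes, entered the test only through transgenic groups where they were high. Their calls at 0 min are thus descriptions and no independent support. Leaving out GR-REV 0 min replicate 1 or 3 gave 6 calls and leaving out WT 0 min replicate 1 gave 7, while without the 3 high libraries at 30 min there were 20, among 2152 genes called in all. In GR-AS2 9 genes were higher and 2 lower (10.3% of all genes were called, 4.7% higher and 5.6% lower), with a median of 0.60. Of the 8 root markers 2 were called higher in GR-AS2 at that time and none in GR-REV. All 11 GR-AS2 calls were lost without its 0 min replicate 3, where the count was 0, and 7 calls were made without replicate 2.

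At 0 min GSTU17 was the 1 member called in GR-KAN1 (0.742% of all genes were called, 0.52% higher and 0.222% lower). It stood at 5.31, 6.97 and 4.55 FPKM there and at 11.7, 14.6, 12.1, 10.7, 15.9 and 12.5 FPKM in WT, without overlap (-1.47, SE 0.25, limma adjusted p = 4.67e-04). In GR-STM none of the 36 was called (0.33% of all genes), with 5 at an unadjusted p under 0.05 and a median of 0.17. Among all 19406 genes 1226 had such a p. The touch and early stress list was higher at 0 min in these 2 lines, with 4 of 7 genes called in GR-STM and 5 of 7 in GR-KAN1, while the members' median was -0.20 in GR-KAN1.

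The changes after dexamethasone were then set against those of WT at the same times. Beyond WT, GR-KAN1 had 0, 2 and 1 members called at 30, 60 and 120 min (0.067%, 1.05% and 0.83% of all genes were called; 0.0103%, 0.211% and 0.283% higher and 0.0567%, 0.84% and 0.546% lower). GSTU27 (AT3G43800), a tau gene on chromosome 3 (15660770 to 15661987), was called at both later times. In GR-KAN1 it stood at 75.0, 60.5 and 63.4 FPKM at 0 min, 68.5, 77.2 and 82.1 at 30 min, 193, 166 and 138 at 60 min, and 257, 154 and 159 at 120 min. WT stood at 46.7 to 101 FPKM at 0 min (median over all 24 libraries 68.6) and at 39.5 to 92.2 FPKM at 120 min. The GR-KAN1 libraries at 60 and 120 min did not overlap with any library of WT at any time. The change beyond WT was 1.23 on the log2 scale at 60 min (SE 0.30, limma adjusted p = 0.0218) and 1.604 at 120 min (SE 0.32, adjusted p = 0.0036). The call at 120 min was kept in all 18 fits without a single library and that at 60 min in 14. Over all times the gene was lower in GR-STM than in GR-KAN1 by 1.04 (-1.04, SE 0.12, adjusted p = 2.35e-09).

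**Figure D5:**
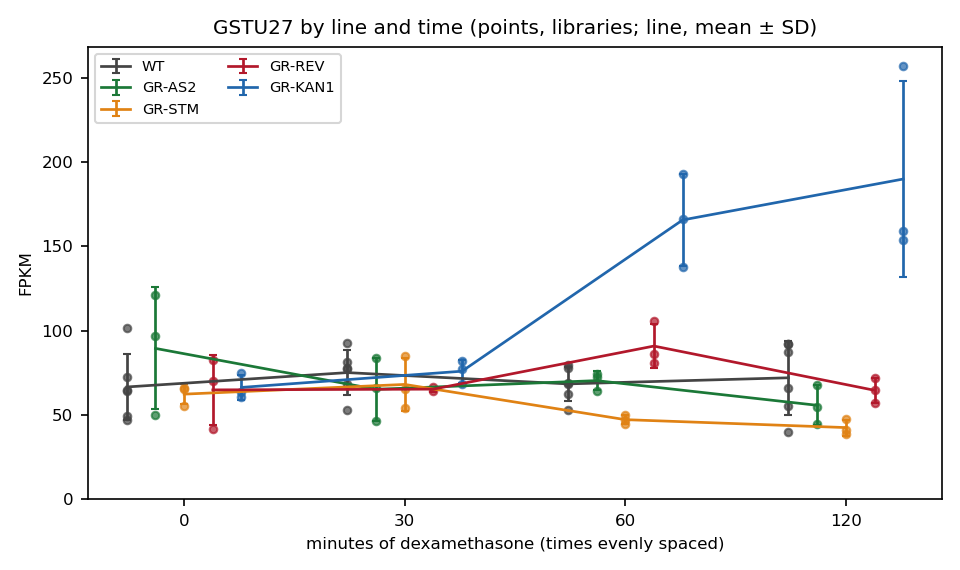
GSTU27 in FPKM by minutes of dexamethasone and line (points, libraries; lines, group mean with SD). GR-KAN1 stands at 138 to 193 FPKM at 60 min and 154 to 257 FPKM at 120 min, above every WT library, while it lies at 60.5 to 75.0 FPKM at 0 min.

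GSTF11 was the other member whose change passed beyond that of WT, at 60 min (1.05, SE 0.28, adjusted p = 0.0438 by limma). It stood at 8.52, 8.89 and 8.37 FPKM at 0 min and 15.45, 15.0 and 21.6 FPKM at 60 min in GR-KAN1. WT replicates 1 to 3 stood at 11.8, 12.4 and 11.4 FPKM at 0 min and 10.6, 11.03 and 10.15 FPKM at 60 min, and replicates 4 to 6 at 18.9, 17.7 and 22.2, then 14.8, 19.85 and 23.3 FPKM. The call was kept in 3 of 18 fits without a single library. In all, 3 calls were made beyond WT in GR-KAN1, against 1 with no covariate for the code series, 1 with WT replicates 4 to 6 left out, and 1 without GR-KAN1 0 min replicate 2 or 3 or 60 min replicate 1. At 60 min 32 of 36 members had a positive change beyond WT in GR-KAN1, with a median of 0.60 (0.02 over all genes), and 29 at 120 min, with a median of 0.61 (0.02 over all genes).

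In GR-AS2, GR-STM and GR-REV no member passed beyond WT at any time. At 30, 60 and 120 min, 3, 5 and 1 members had an unadjusted p under 0.05 in GR-AS2, 0, 2 and 1 in GR-STM and 4, 1 and 4 in GR-REV. Among all 19406 genes such a p was found for 2049, 1713 and 1308 in GR-AS2. The counts were 1130, 1977 and 1099 in GR-STM and 1102, 2140 and 1629 in GR-REV. Of all genes, 0%, 0.0103% and 0% were called in GR-AS2, 0.144% (0.0206% higher, 0.124% lower), 0.876% (0.495%, 0.381%) and 0.819% (0.587%, 0.232%) in GR-STM, and 0.0412% (all higher), 1.18% (0.721%, 0.459%) and 0.799% (0.464%, 0.335%) in GR-REV. Positive changes beyond WT were seen in 15, 19 and 7 of 36 members in GR-AS2 (medians -0.07, 0.14 and -0.26). In GR-STM 11, 9 and 17 were positive (-0.17, -0.32 and -0.06), and in GR-REV 9, 16 and 9 (-0.54, -0.07 and -0.45). The medians over all genes lay between -0.0057 and 0.015. For GSTF6 the GR-REV libraries stood at 821, 368 and 474 FPKM at 0 min, 256.5 and 233 at 30 min, 611, 273 and 422 at 60 min, and 464, 237 and 592 at 120 min, so the levels at 0 min overlapped with those after the hormone.

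Set against each other over the 4 times, the transgenic lines differed in 93 gene and pair calls over the 6 pairs. GR-AS2 was higher than GR-KAN1 in 16 members and lower in 2 (31.5% of all genes were called), GR-REV higher than GR-KAN1 in 14 and lower in 6 (26.2% of all genes), and GR-STM higher than GR-REV in 3 and lower in 14 (20.3% of all genes). GR-AS2 exceeded GR-REV in 10 members and was lower in 9 (23.5% of all genes), and it exceeded GR-STM in 9 and was lower in 2 (16.1% of all genes). GR-STM exceeded GR-KAN1 in 5 and was lower in 3 (14.5% of all genes). GR-AS2 and GR-REV thus shared higher phi genes yet differed in 19 members, with GSTU17, GSTU5 and GSTU22 at the smallest adjusted p.

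Other genes of glutathione use were read against the 22.7% of all genes called in GR-REV (12.6% higher, 10.1% lower), 17.6% in GR-AS2, 4.08% in GR-STM and 11.6% in GR-KAN1. Of 7 tested genes of glutathione synthesis, reduction and breakdown, 5 were higher and 0 lower in GR-REV, with a median of 0.61. They were GSH1 (0.67, SE 0.13) and GSH2 (0.61, SE 0.06, limma adjusted p = 1.32e-12), which build glutathione, GR1, which reduces it (0.35, SE 0.12), and the peptidase genes GGT4 (0.62, SE 0.12) and GGP1, given above. GSH2 stood at 23.25 to 42.5 FPKM in WT and 51.5 to 66.75 FPKM in GR-REV, without overlap. In GR-AS2 2 of 7 were higher, in GR-STM 0 were called, and in GR-KAN1 1 was lower (GSH2, -0.17, SE 0.06). Of 12 genes of the other glutathione transferase classes 3 were higher and 2 lower in GR-REV, 3 higher and 2 lower in GR-AS2, 0 called in GR-STM, and 1 higher and 1 lower in GR-KAN1. DHAR1, which regenerates ascorbate with glutathione, was the most changed (2.22, SE 0.20, adjusted p = 2.19e-13), at 205 to 512 FPKM in WT and 731 to 2261 FPKM in GR-REV, without overlap. Of 9 genes of conjugate transport and xenobiotic response, 2 were higher in each of GR-REV (OPR1 and ANAC032), GR-AS2 (OPR2 and the conjugate transporter gene ABCC3) and GR-KAN1 (ABCC1 and ANAC032), and OPR2 was lower in GR-STM. For GR-REV and GR-AS2 that count is near the share of all genes called. The jasmonate list was called higher in GR-REV in 7 of 7 genes, with LOX2 at a median of 58.1 FPKM in WT and 336 FPKM in GR-REV (2.55, SE 0.17, adjusted p = 8.18e-18). In GR-KAN1 LOX2 was lower (-0.84, SE 0.17). Of 7 touch and early stress genes, 4 were higher over all times in each of GR-REV and GR-KAN1 and 1 in each of the other lines. The part of the jasmonate and stress genes in the members' differences was not tested.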

How the data were processed

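The deposited FPKM were scaled between libraries by Cufflinks' geometric method, as the labels state. The submitters' processing notes name TopHat2 2.0.10, Cufflinks and TAIR10. The annotation is not given in the sources used here, nor are the version of Cufflinks and strand use. The table had 22346 entries, of which 14 placeholders were left out, and 0 columns of other samples. Depth is unknown: low FPKM were not in steps of single reads (a median of 1.79% to 5.53% of low values per code series shared a ratio within 0.01 on the log2 scale), so precision is that of the replicates, which the series' design text calls biological.

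One linear model in limma 3.58.1 (R 4.3.3) was fitted to log2(FPKM + 0.5) of all 71 libraries, with 20 group means and the code series as covariate (49 residual degrees of freedom, empirical Bayes with trend), over the 19406 genes with a highest group mean of at least 1 FPKM. Differences on that scale come out small for genes of low level and need not equal ratios of mean FPKM. The 29 contrasts were each adjusted over all genes. The procedure was tested on simulated data. The members and gene lists were chosen with earlier results of these data known. Any listed member may be named; values by library went to the 14 with the smallest adjusted p over the contrasts and the 3 most abundant of each class, and list genes were named by smallest adjusted p, at most 3 a list and contrast, or to account for a count of 5 or fewer. Other members' ranges are given as summaries.

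Coding identities, neighbours and upstream windows were computed from the RefSeq annotation of TAIR10.1 with Biopython 1.88. Alternatives were other pseudocounts, filters and normalizations, fits without the covariate, without WT replicates 4 to 6, with the replicate number as a block, of only the groups compared, and without each library. Chosen after seeing the data were fits without the 5 libraries furthest out on the main axis of the residuals (15.1% of their variance), without the 3 high libraries at 30 min, and with GSTF6 and GSTF7, and GSTF2 and GSTF3, summed. The upstream sequence of 1 member is not reported here.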

Additional observations from a re-analysis of the deposited data

Results flagged for a closer look

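Within WT groups of 6 libraries, the gap between an extreme library and its nearest neighbour was set against the group's range for each of the 36 genes (144 gene and group pairs). The cut-off passes about 1 in 20 groups of independent, normally distributed values, and 26 passed. It was applied to FPKM, in groups that mix code series, and the members share libraries. The 26 therefore cannot be set against that rate. Of these, 13 lay in 1 library, WT 30 min replicate 3, each the highest of its group: 1000 FPKM for GSTF2 (next 390.6), 275.7 for GSTF6 (99.87), 445.1 for GSTF7 (105.2), 9858 for GSTF9 (3976), 2.156 for GSTF3 and 56.13 for GSTF14, and among tau genes 8.377 for GSTU1, 10.68 for GSTU4, 58.04 for GSTU8, 44.24 for GSTU9, 1.867 for GSTU12, 14.43 for GSTU24 and 5.812 for GSTU25.

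WT 0 min replicate 2 was the highest of its group for GSTU20 (1380 FPKM, next 537.9), GSTF10 (1576), GSTF8 (977.6), GSTU16 (25.92), GSTU14 (7.695) and GSTU1 (2.897). Single values were GSTU3 at 0.1061 FPKM in WT 0 min replicate 3 (the others at 0), GSTU9 at 11.84 and GSTF12 at 1.823 in WT 60 min replicate 2, GSTF12 at 3.385 in WT 120 min replicate 2, and GSTU28 at 6.438 in WT 120 min replicate 5. The lowest in their groups were GSTU17 at 4.813 FPKM in WT 30 min replicate 6 and GSTU26 at 11.76 in WT 120 min replicate 1.

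The change after dexamethasone differed from that of WT in GR-KAN1 for GSTU27, by 1.234 at 60 min and 1.604 at 120 min on the log2 scale, and for GSTF11, by 1.05 at 60 min, in limma's test of the difference itself (adjusted p = 0.0218, 0.0036 and 0.0438).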

How the results depend on the processing

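No call reversed its direction under any alternative. The model made 165 gene and contrast calls among the members. Fits without 1 library kept 3792 of 4046 such calls, and 126 calls were kept in every one. The pairing of equal replicate numbers was checked within the first code series. Of 551 same-number pairs 161 had a correlation of deviations over 0.1 (median 0.00724, range -0.522 to 0.477). The small median shows no pairing by number common to all groups. The pairs were pooled over lines and times, so the check cannot decide whether equal numbers pair the samples at a single time or in some lines. With the replicate number as a block the counts were 0 in WT; 11, 0, 12 and 1 at 0 min, 17, 2, 22 and 5 over all times, and 0, 0, 0 and 2 beyond WT (order GR-AS2, GR-STM, GR-REV, GR-KAN1 throughout); and 92 between lines, with 157 of the 165 calls kept.

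With no code series covariate the count was 4 in WT (0 in the model reported), 9 in GR-STM (2) and 13 in GR-KAN1 (6) over all times, and 1 in GR-KAN1 beyond WT (3). With WT replicates 4 to 6 left out it was 2 in GR-AS2 at 0 min (11) and 1 in GR-KAN1 beyond WT. With only the groups compared it was 3 in GR-AS2 at 0 min and 1 in GR-AS2 beyond WT (0). A pseudocount of 0.1 FPKM gave 2 in GR-KAN1 at 0 min (1). Without the 5 least typical libraries GR-REV at 0 min had 6 (12). Without the 3 high libraries at 30 min the counts were 2 in WT, 1 in GR-STM and 20 in GR-REV at 0 min, 11 in GR-KAN1 over all times, and 4 in GR-KAN1 beyond WT, where 2152 genes in all were called in GR-REV at 0 min (1515 with them). With near-identical copies summed GR-STM over all times had 1. The cause of these moves was not tested.

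Without 1 library the counts ranged from 0 to 0 in WT and in GR-STM at 0 min, 0 to 15 in GR-AS2, 6 to 14 in GR-REV and 1 to 1 in GR-KAN1 at 0 min; from 16 to 22, 2 to 3, 18 to 23 and 5 to 9 over all times, in the order above; from 0 to 3, 0 to 0, 0 to 0 and 1 to 3 beyond WT; and from 82 to 101 between lines. Beyond WT, GR-AS2 had 3 without its 30 min replicate 2, and GR-KAN1 had 1 without its 0 min replicate 2 or 3 or its 60 min replicate 1. Summing copies by protein identity was not run, since coding sequence was used instead.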
